A study of Mus musculus with 32 samples.

Results

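Described here are 10 genes that mark radial glia and neural progenitors (Sox2, Pax6, Emx2, Hopx, Nes, Vim, Fabp7, Slc1a3, Prom1 and Notch1) in the developing mouse brain, with and without a working Dhcr7 gene. They were taken by symbol from the first column of the 4 count tables, where all 10 were found among 55291 symbols. Poly(A)-enriched RNA was sequenced from the whole brain of C57BL/6J mice at the embryonic stages E12.5, E14.5 and E16.5, named by days of gestation, and at birth (PND0). At each stage 4 libraries came from wild-type animals (WT, Dhcr7+/+) and 4 from animals with both copies of Dhcr7 disrupted (KO, Dhcr7-/-), which makes 32 libraries in 8 groups. Dhcr7 encodes the reductase that converts 7-dehydrocholesterol to cholesterol, and its loss in humans causes Smith-Lemli-Opitz syndrome. No treatment is named, and all groups share the strain and tissue. The labels name no Cre or promoter, and they give neither the disrupted part of the gene nor litter, sex or pooling of animals. The p-values below therefore measure the spread between these libraries.

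Radial glia are the elongated cells of the ventricular zone that act as the stem cells of the embryonic brain. They divide to renew themselves and to make neurons, directly or through intermediate progenitors, and later many of them become astrocytes or ependymal cells. Their fibres also guide newborn neurons outward. Several radial glia genes stay on in astrocytes and adult neural stem cells, so their messenger RNA in whole brain does not come from progenitors alone. Notch signalling between neighbouring cells keeps radial glia from differentiating.

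The libraries held 13.87 to 28.32 M counts each. Hopx, the member with the fewest reads, had 62 to 178 counts in a library, and the other members had between 251 and 27874. Levels are given as CPM, the counts of a gene per 1 M counts of its library, scaled over all 32 libraries. Dhcr7 itself was lower in every KO library than in every WT library of its stage, with a log2 fold change between -1.64 (E12.5) and -2.63 (PND0). Transcripts remained in KO libraries at 11.4 to 26.7 CPM. Among the WT libraries of PND0, replicate 4 had 60.0 CPM of Dhcr7 against 96.9 to 102.4 CPM in the others, which is still above all KO libraries. A ribosomal RNA gene took 5.64% of the counts of KO replicate 1 at E12.5 and 3.75% of those of WT replicate 1 at E16.5, and at most 2.78% in libraries of the other 6 groups. The markers fixed for neurons were present in all libraries, with a summed level over 10 genes of 2992.5 to 8358.8 CPM. Where a library stands apart, values without it are given beside some of the results, not all.

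The members fall into 4 roles. Transcriptional regulators are Sox2 (ENSMUSG00000074637.7, chromosome 3, 34650405 to 34652461, plus strand), Pax6 (ENSMUSG00000027168.21, chromosome 2, 105668900 to 105697364, plus strand), Emx2 (ENSMUSG00000043969.4, chromosome 19, 59458372 to 59465357, plus strand) and Hopx (ENSMUSG00000059325.14, chromosome 5, 77086988 to 77115121, minus strand). Intermediate filament genes are Nes (ENSMUSG00000004891.16, chromosome 3, 87971078 to 87980451, plus strand) and Vim (ENSMUSG00000026728.9, chromosome 2, 13573927 to 13582826, plus strand). Fabp7 (ENSMUSG00000019874.11, chromosome 10, 57784881 to 57788450, plus strand) encodes a fatty acid binding protein, and Slc1a3 (ENSMUSG00000005360.14, chromosome 15, 8634124 to 8710764, minus strand) a glutamate transporter. Prom1 (ENSMUSG00000029086.15, chromosome 5, 43993620 to 44102032, minus strand) and Notch1 (ENSMUSG00000026923.15, chromosome 2, 26457903 to 26516663, minus strand) encode proteins of the cell surface. Positions are on GRCm38 from the GENCODE M21 annotation.

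RefSeq promoter windows on GRCm38.p6, 300 bases each, were found for all 10 genes, 13 windows in all. Below are the parts of 3 of them that lie upstream of the annotated gene. They are shown because they belong to the member that fell most over the WT course (Nes), the member that rose most (Slc1a3), and the member with the highest level per length (Fabp7). They read 5′ to 3′ on the gene's strand, from chr3:87970843-87971077 (plus) for Nes, chr10:57784673-57784880 (plus) for Fabp7 and chr15:8710808-8711057 (minus) for Slc1a3, and capitals mark the reverse complement of TGGGAA.
Nes: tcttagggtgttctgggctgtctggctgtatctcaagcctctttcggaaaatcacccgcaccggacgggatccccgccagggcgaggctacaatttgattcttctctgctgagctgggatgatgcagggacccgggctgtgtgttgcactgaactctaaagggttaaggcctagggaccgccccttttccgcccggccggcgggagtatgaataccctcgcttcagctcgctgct
Fabp7: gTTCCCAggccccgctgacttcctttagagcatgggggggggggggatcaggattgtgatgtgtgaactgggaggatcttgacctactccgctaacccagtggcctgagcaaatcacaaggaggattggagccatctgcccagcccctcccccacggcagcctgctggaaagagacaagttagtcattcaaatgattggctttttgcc
Slc1a3: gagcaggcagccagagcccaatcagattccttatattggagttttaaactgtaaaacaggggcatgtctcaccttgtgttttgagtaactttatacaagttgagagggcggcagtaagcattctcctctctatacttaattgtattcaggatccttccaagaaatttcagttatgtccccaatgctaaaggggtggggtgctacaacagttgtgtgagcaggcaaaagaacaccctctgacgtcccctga

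The 3 stretches differed in base composition. The Nes stretch had 14 CpG dinucleotides in 235 bases and a GC content of 58.7%. The Fabp7 stretch had 3 in 208 bases and 56.2%, and the Slc1a3 stretch 2 in 250 bases and 44.8%. Over whole windows, Slc1a3 held 3 CpG and Fabp7 6, against 10 to 27 in the first windows of the 7 members that were lower at PND0 than at E12.5, and a median of 7 over all 32851 windows of the same length. The second window of Prom1 held 4, so the order is not complete. Both strands were searched for TGGGAA, the core of the RBPJ site through which Notch signalling acts on its targets, and for AACAAT, the core of the SOX site. TGGGAA was in 3 of the 13 windows, those of Emx2, Fabp7 and the first of Prom1, against 25.6% of all windows. AACAAT was in 1, the second window of Hopx, against 10.7% of all windows. A match is a description of these letters only.

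Per kilobase of the longest annotated transcript, Fabp7 and Vim led in WT at every stage, and Hopx was lowest. At E12.5 Fabp7 measured 327.9 ± 72.1 CPM per kb and Vim 316.9 ± 26.8 CPM per kb (SD, n = 4), and their libraries overlapped. Nes at 109.3 and Sox2 at 97.5 CPM per kb followed and overlapped each other. Pax6, Emx2, Notch1, Slc1a3 and Prom1 lay between 25.7 and 18.7 CPM per kb, each overlapping the next, and Hopx stood apart at 3.84 CPM per kb. At PND0 the order was Fabp7 at 501.1, Vim at 80.4, Slc1a3 at 64.7, Sox2 at 42.4, Nes at 15.9 and Notch1 at 10.5 CPM per kb, with no overlap between these neighbours. Below them Pax6, Emx2, Prom1 and Hopx, from 7.31 down to 4.51 CPM per kb, overlapped their neighbours. Slc1a3 thus moved from rank 8 to rank 3, and Nes from rank 3 to rank 5.

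**Figure D1:**
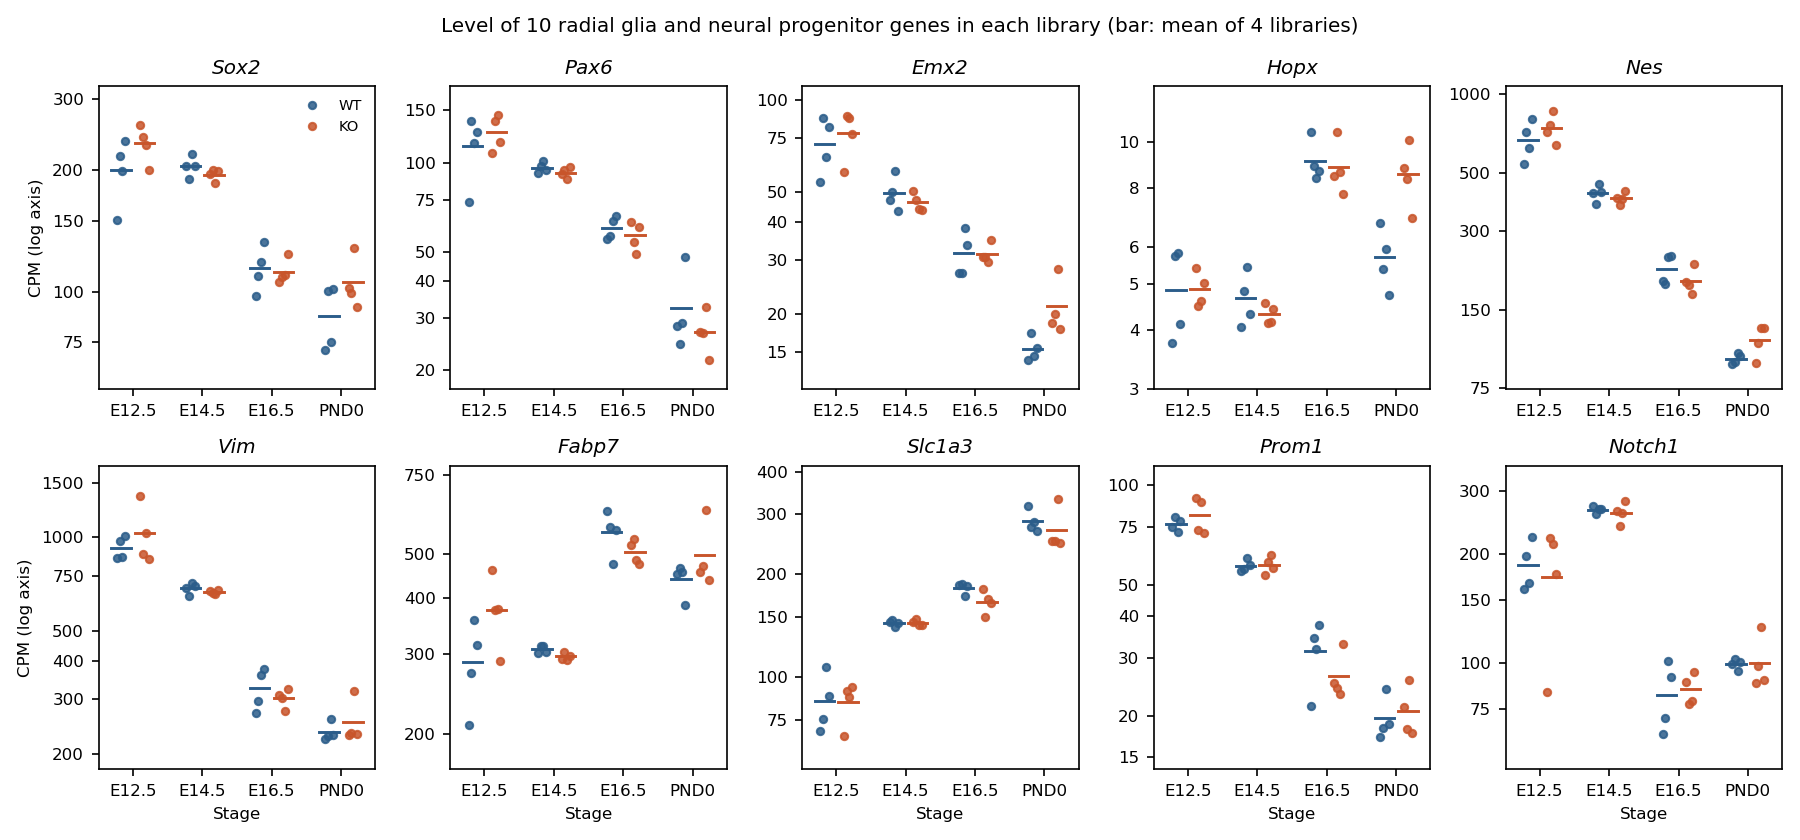
CPM on a log axis for each of the 10 genes in each library, by stage, with WT in blue and KO in orange. Points are libraries and bars are means of 4. For Nes, differences between stages are wide beside those between genotypes. Nes lay between 540.8 and 860.2 CPM in both genotypes at E12.5 and between 93.0 and 127.4 CPM at PND0. This does not hold for every gene. For Hopx the log2 fold change of KO against WT at PND0 was 0.58, and that of WT PND0 against E12.5 was 0.26.

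The first question is how the members moved over the WT stages. At PND0 against E12.5, 7 of the 10 members were lower and 2 higher by edgeR's quasi-likelihood test (adjusted p under 0.05). Nes, Emx2, Vim, Prom1, Pax6, Sox2 and Notch1 fell, and Slc1a3 and Fabp7 rose. With offsets for transcript length Hopx passed too (0.57, adjusted p = 0.032), against 0.26 (adjusted p = 0.269) without them. The test called 70.9% of 17681 genes in this comparison, 36.4% lower and 34.5% higher, so being called sets no member apart, and what is described is direction and size. In 9 of 10 members the libraries of these stages did not overlap, against 66.0% of all genes. The median log2 fold change was -1.48 over the members and -0.05 over all genes tested. In whole brain, fewer cells of a type and less RNA per cell cannot be told apart, and since each stage is its own count table, a batch that went with stage cannot be told apart from stage.

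The drop was not even over the steps, with a median log2 fold change of the members of -0.174, -0.735 and -0.6 in stage order. From E12.5 to E14.5, 6 members passed, 2 higher and 4 lower, against 57.8% of all genes (27.3% higher, 30.5% lower). From E14.5 to E16.5 all 10 passed, 3 higher and 7 lower, against 57.5% of all genes (29.3% higher, 28.2% lower). From E16.5 to PND0, 9 passed, 1 higher and 8 lower, against 53.2% of all genes (26.0% higher, 27.2% lower). The libraries did not overlap for 5, 10 and 7 members at these steps, against 53.6%, 53.1% and 48.0% of all genes. Neighbouring steps share the libraries of the stage between them.

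Nes encodes nestin, the filament protein by which neural stem cells are often recognised. In WT replicates 1 to 4 it measured 540.8, 715.5, 622.0 and 800.8 CPM at E12.5 and 419.1, 381.9, 453.6 and 422.6 CPM at E14.5. It measured 193.2, 188.6, 239.3 and 240.6 CPM at E16.5 and 93.0, 94.4, 102.5 and 99.4 CPM at PND0. Every library was below every library of the stage before. The log2 fold changes of the 3 steps were -0.70 (SE 0.109, adjusted p = 0.000479), -0.94 (SE 0.0889, adjusted p = 2.39e-06) and -1.17 (SE 0.088, adjusted p = 1.83e-07). Nes at PND0 was at 14.9% of its E12.5 level (95% interval 12.4% to 17.7%), the largest fall among the 10 members. Vim encodes vimentin, the filament partner of nestin in radial glia, which is also made by endothelial, meningeal and other mesenchymal cells. Its WT libraries lay at 857.3 to 1012.9 CPM at E12.5 and at 223.1 to 259.6 CPM at PND0. The steps of Vim were -0.46, -1.05 and -0.50 on the log2 scale, all past the threshold and largest between E14.5 and E16.5.

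Of the transcriptional regulators, Emx2, which patterns the dorsal forebrain, fell at each step, by 0.56, 0.63 and 1.06 on the log2 scale. Its WT libraries went from 53.8 to 87.2 CPM at E12.5 to 14.2 to 17.3 CPM at PND0, which is 21.9% of the start. The first of these calls ended when no filter on low counts was used (adjusted p = 0.0592). Pax6, a regulator of cortical neurogenesis that also acts in eye and cerebellum, went from 73.7 to 138.4 CPM at E12.5 to 24.5 to 48.1 CPM at PND0. Its later steps passed, with log2 fold changes of -0.65 and -0.92. The first step of Pax6 did not (-0.27, adjusted p = 0.203), but it passed without WT replicate 1 of E12.5 (-0.41, adjusted p = 9.12e-05).

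Sox2, a regulator of stem cell maintenance, did not pass from E12.5 to E14.5 (log2 fold change 0.006, 95% interval -0.26 to 0.27). Its E12.5 libraries lay at 150.9 to 235.9 CPM and its E14.5 libraries at 190.8 to 220.0 CPM, the former range enclosing the latter. Sox2 then fell by 0.82 to 97.7 to 132.6 CPM at E16.5 and by a further 0.42 to 71.7 to 101.4 CPM at PND0. The last 2 of these ranges overlap. Hopx, a homeodomain protein without DNA binding that marks outer radial glia and some adult stem cells, took another course. In WT replicates 1 to 4 it measured 3.74, 5.73, 5.81 and 4.11 CPM at E12.5, 4.06, 4.82, 5.42 and 4.32 CPM at E14.5, 10.5, 8.89, 8.37 and 8.68 CPM at E16.5, and 6.73, 5.39, 5.92 and 4.73 CPM at PND0. All E16.5 libraries were above those of the other stages. Hopx rose 1.98-fold from E14.5 to E16.5 (log2 0.99, SE 0.136, adjusted p = 1.29e-05) and fell by 0.71 on the log2 scale to PND0 (SE 0.158, adjusted p = 0.00172).

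The 2 glial transport genes rose. Slc1a3 encodes GLAST, the glutamate transporter of radial glia and astrocytes. It measured 69.5, 75.5, 107.0 and 88.4 CPM in the WT libraries at E12.5, 140.5 to 146.7 CPM at E14.5, 185.7, 187.3, 172.9 and 185.4 CPM at E16.5, and 318.3, 275.9, 285.2 and 268.2 CPM at PND0. Every library was above every library of the stage before. Slc1a3 was the only member called higher at all 3 steps, with log2 fold changes of 0.73 (SE 0.112, adjusted p = 0.000467), 0.36 (SE 0.0454, adjusted p = 4.5e-06) and 0.62 (SE 0.0708, adjusted p = 5.93e-06). At PND0 it stood 3.45-fold above E12.5 (95% interval 2.84 to 4.17).

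Fabp7, the brain fatty acid binding protein of radial glia and immature astrocytes, had a peak in the middle. The WT libraries measured 208.8, 273.0, 357.8 and 314.5 CPM at E12.5, 302.2, 313.8, 313.8 and 304.5 CPM at E14.5, 623.6, 573.7, 475.5 and 566.5 CPM at E16.5, and 453.4, 465.5, 458.1 and 387.0 CPM at PND0. From E14.5 to E16.5 it rose 1.84-fold (log2 0.88, SE 0.0681, adjusted p = 3.59e-08), the smallest adjusted p of the members at that step. To PND0 it fell by 0.37 on the log2 scale (SE 0.0902, adjusted p = 0.00296). The longest annotated transcript of Fabp7 has 880 nt. With offsets fitted on transcript length, an alternative chosen after seeing the data, the value of this fall was 0.09 (adjusted p = 0.401). With the same offsets the fall of Hopx, with 1261 nt the next shortest, became -0.39 (adjusted p = 0.0559). Across all genes the log2 fold change of this step had a Spearman correlation of 0.244 with transcript length, as a description over 17128 genes that are not independent. The rise of Fabp7 and Hopx from E14.5 to E16.5 passed with those offsets, at 0.61 (adjusted p = 1.35e-06) and 0.80 (adjusted p = 0.000114).

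The 2 surface genes differed from each other. Prom1 encodes prominin-1 (CD133), a protein of apical membrane protrusions. It went from 72.3 to 80.3 CPM at E12.5 through 55.0 to 60.3 and 21.4 to 37.8 CPM to 17.2 to 24.1 CPM at PND0, and each step passed (log2 -0.45, -0.84 and -0.70). Notch1, the receptor that holds radial glia undifferentiated, measured 160.9, 198.5, 166.3 and 222.9 CPM in the WT libraries at E12.5 and 271.9, 258.1, 267.2 and 266.2 CPM at E14.5. It measured 63.9, 70.9, 101.6 and 91.7 CPM at E16.5 and 99.6, 103.0, 95.4 and 101.0 CPM at PND0. The E14.5 libraries stood above all others. Notch1 rose 1.39-fold into E14.5 (log2 0.48, SE 0.0914, adjusted p = 0.00144) and dropped to 31.3% of that level at E16.5 (log2 -1.67, SE 0.142, adjusted p = 2.14e-05), the largest single step of any member. Its last step did not pass (log2 0.25, adjusted p = 0.0929). It passed without WT replicate 3 of E16.5 (0.37, adjusted p = 0.0127) and with no filter on low counts (adjusted p = 0.0209).

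**Figure D2:**
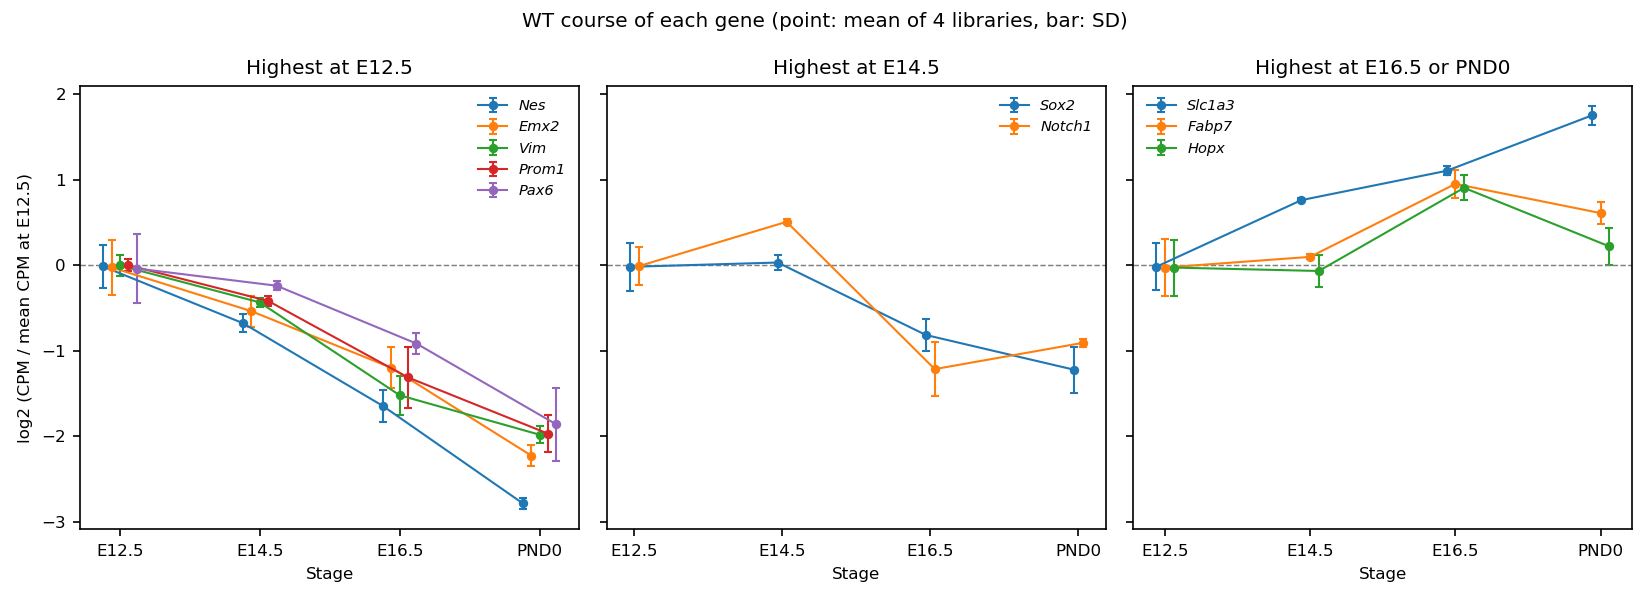
WT level of each gene by stage on a log2 scale, relative to its mean at E12.5, in 3 panels by the stage of the highest mean, with E16.5 (Fabp7, Hopx) and PND0 (Slc1a3) in 1 panel. Points are means of 4 libraries and bars are SD. Nes ends lowest, Notch1 drops most between E14.5 and E16.5, and Slc1a3 ends highest, at a fitted log2 change of 1.79 from E12.5.

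The 18 other radial glia and neural stem cell genes listed for comparison give the setting. From E12.5 to PND0 all 18 passed, 14 lower and 4 higher, with a median log2 fold change of -1.26. Gli3, the Hedgehog pathway repressor, fell by 3.10 on the log2 scale and the stem cell regulator Sox3 went from 63.2 to 131.0 CPM to 8.31 to 14.8 CPM, while Tnc, an extracellular matrix protein of the stem cell niche, rose by 1.91 and Ptprz1, a receptor phosphatase of outer radial glia, by 1.04. As among the members, the step from E14.5 to E16.5 held the most calls, 14 lower and 2 higher of 18, against 3 lower and 2 higher at the step before and 7 lower and 3 higher at the step after. All 10 intermediate progenitor genes and all 10 cell cycle genes were lower at PND0 than at E12.5, with medians of -2.20 and -3.15. All 10 neuron genes were higher (median 1.30), and 7 of 8 astrocyte genes were higher and passed (median 1.87). The summed level of 6 meningeal and mesenchymal genes went from 1430.7 to 3166.5 CPM at E12.5 to 528.7 to 643.4 CPM at PND0, and that of 6 blood genes from 1758.3 to 7870.6 CPM to 179.0 to 237.4 CPM. The part of these other tissues in the course of the members was not tested.

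Likeness of pattern was measured as the root mean square difference of log2 CPM over the 32 libraries, with each gene centred on its mean, among 11810 genes at a mean of at least 5 CPM. Most alike among the members were Vim and Prom1, at 0.141. Hopx and Fabp7 followed at 0.219, Pax6 and Emx2 at 0.278 and Emx2 and Prom1 at 0.286, while Nes and Slc1a3 were least alike at 1.65. Outside the members, the nearest gene to Vim was Hes1 at 0.161, where the median gene stood at 0.821. Nes was nearest to Smc4 at 0.164 and Kif22 at 0.172, which encode a condensin subunit and a mitotic kinesin. Vim was next nearest to Mcm6 at 0.162. Fabp7 was nearest to Ppp1r1a (0.118) and Calm2 (0.137), Slc1a3 to Atp9a (0.139) and Prkar2b (0.142), Sox2 to Ntn4 (0.152) and Phc2 (0.156), and Prom1 to Nt5dc2 (0.156) and Cyp39a1 (0.176). Hopx was nearest to Rhebl1 (0.183) and Rprm (0.204), Emx2 to H1f0 (0.183) and Megf10 (0.201), Pax6 to Cemip2 and Megf10 (0.213 each), and Notch1 to Lrp4 (0.224) and Polr2a (0.247). All 32 libraries share the course over stages, which sets most of these values.

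The second question is whether the loss of Dhcr7 changed the members at any stage. None of the 10 passed edgeR's test at E12.5, E14.5, E16.5 or PND0. DESeq2, which gave an adjusted p for 36 of the 40 values, called none either. Over all genes edgeR called 0.0177% at E12.5 (3 of 16948), 0.527% at E14.5 (94 of 17837), 0.0462% at E16.5 (8 of 17328) and 1.44% at PND0 (250 of 17420), so that 0 of 10 is near this background at each stage. The count was 0 with each library left out in turn. It was 1 at PND0 in a fit of all 32 libraries, where Hopx passed. That fit called 1205 of 19541 genes at PND0, so this call does not set Hopx apart. At an unadjusted p under 0.05 there were 0, 0, 1 and 3 members in stage order, against 4.7%, 8.73%, 11.5% and 18.0% of all genes.

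The intervals show the precision of the estimates. The 95% intervals of the 10 members together ran from 60.7% to 171% of the WT level at E12.5, from 74.9% to 116% at E14.5, from 63.4% to 129% at E16.5 and from 60.8% to 197% at PND0. A 2-fold change of a member in either direction lies outside these intervals at all 4 stages, while many of them include smaller changes. Each interval is that of its own gene, without adjustment over all genes, so it does not give the size of change that the test would call. With libraries left out in turn, the log2 fold change of Hopx at PND0 reached 0.67, against 0.58 with all libraries of the stage.

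**Figure D3:**
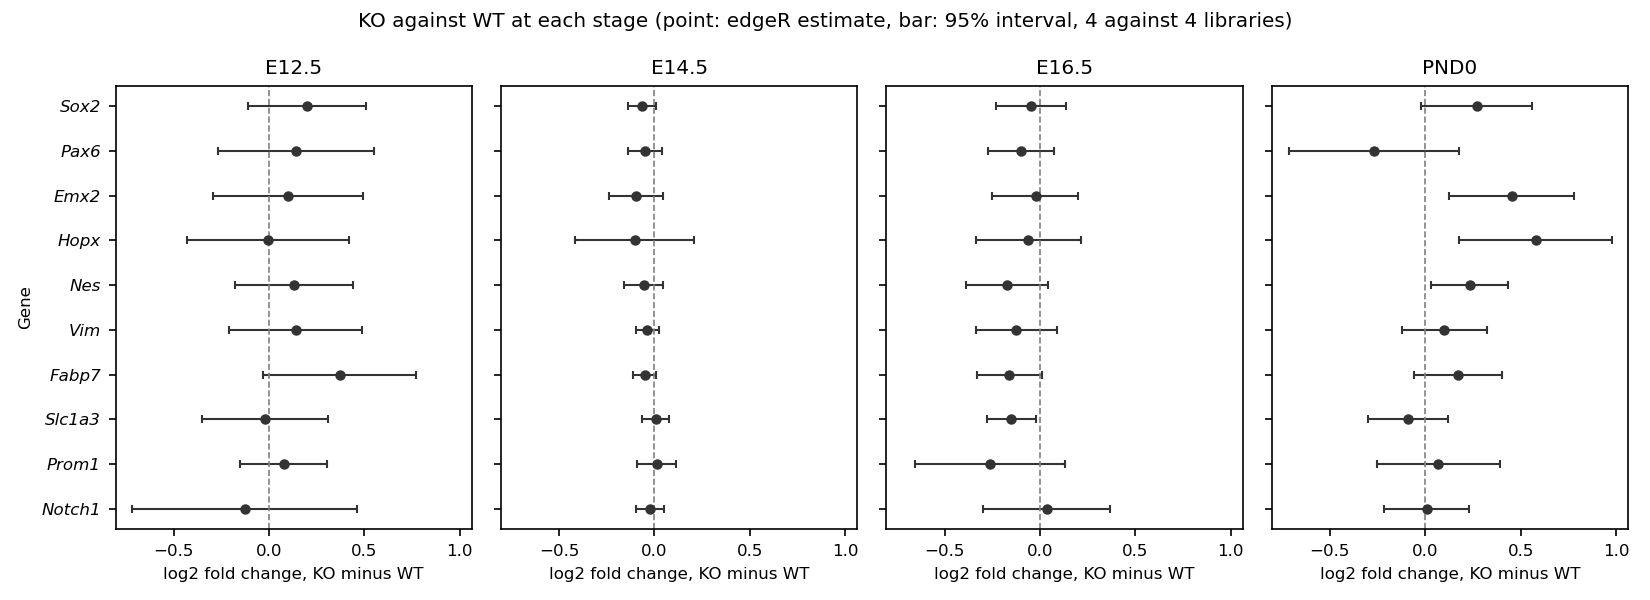
Log2 fold change, KO minus WT, of each gene at each stage, with 95% intervals from edgeR (4 against 4 libraries). Intervals are narrowest at E14.5 for 9 of the 10 genes (for Hopx at E16.5), and those of Emx2, Hopx and Nes at PND0 and Slc1a3 at E16.5 leave out 0 before adjustment over all genes.

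At E12.5, 7 members had a higher and 3 a lower KO estimate, with a median log2 fold change of 0.12 against 0.003 over all genes. Fabp7 had the largest difference. It measured 208.8, 273.0, 357.8 and 314.5 CPM in WT and 461.8, 377.3, 378.7 and 290.2 CPM in KO. The groups overlapped, since KO replicate 4 lay among the WT libraries. Its log2 fold change was 0.37 (95% interval -0.03 to 0.77, adjusted p = 0.875), and it was 0.25 without WT replicate 1 and 0.24 without KO replicate 1. With libraries left out in turn it ran from 0.242 to 0.485. It was 0.39 in the fit of all 32 libraries (adjusted p = 0.16) and 0.50 with a covariate for sex genes (adjusted p = 0.398). With offsets for transcript length it was 0.29 (adjusted p = 0.816). No member had groups that did not overlap, against 2.53% of all genes.

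WT replicate 1 and KO replicate 1 stand apart at this stage, and they are not the only ones that differ. KO replicate 4 was the lowest KO library for 5 of the 10 members. The summed level of 6 meningeal and mesenchymal genes was 2339.8, 681.3, 750.6 and 2735.6 CPM in KO replicates 1 to 4. WT replicate 1 was the lowest WT library for 9 of the 10 members, with 73.7 CPM of Pax6 against 115.9 to 138.4 CPM in the others. Its summed level of 6 meningeal and mesenchymal genes was 3166.5 CPM against 1430.7 to 2147.1 CPM in the other WT libraries. Its summed level of 6 oligodendrocyte lineage genes was 305.0 CPM against 104.7 to 137.0 CPM, and that of 6 eye and olfactory genes 54.6 CPM against 1.61 to 5.36 CPM. KO replicate 1, the library with 5.64% ribosomal RNA, was the highest KO library for 5 members and the lowest for 4. It had 1363.0 CPM of Vim against 854.6 to 1035.6 CPM in the other KO libraries, and 83.4 CPM of Notch1 against 176.3 to 221.5 CPM. Without it the difference of Notch1 went from -0.13 to 0.09 and that of Vim from 0.14 to -0.04. Without WT replicate 1 the differences of Pax6 and Emx2 went from 0.14 and 0.10 to -0.01 each. None of these values passed the test.  With the log2 CPM of the ribosomal RNA gene as covariate the differences were 0.03 for Vim, 0.02 for Notch1, 0.20 for Pax6, 0.19 for Emx2 and 0.28 for Fabp7. None was past the threshold.

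Other lists differed in direction at E12.5, with 0 genes past the threshold in any of them. All 10 intermediate progenitor genes (median log2 fold change 0.32), all 10 neuron genes (0.15), all 6 ventral forebrain progenitor genes (0.26), all 5 cerebellar lineage genes (0.30) and 14 of the 18 other radial glia genes (0.20) had higher KO estimates. All 6 blood genes (-0.99), all 6 meningeal and mesenchymal genes (-0.39) and all 6 oligodendrocyte lineage genes (-0.44) had lower ones, as did 7 of 10 cell cycle genes (-0.10). The meningeal sum was 681.3 to 2735.6 CPM in KO and 1430.7 to 3166.5 CPM in WT, and the blood sum 1439.3 to 4429.6 and 1758.3 to 7870.6 CPM. The part of these tissues in the differences of the members was not tested.

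At E14.5 the libraries were closest to each other. The coefficient of variation of the members had a median of 4.02% in WT and 4.47% in KO, against 18.9% and 13.9% at E12.5. There were 8 members with a lower and 2 with a higher KO estimate, between -0.10 and 0.01 on the log2 scale, with a median of -0.05. Slc1a3 measured 140.5 to 146.7 CPM in the WT and 141.8 to 147.7 CPM in the KO libraries, so that the groups overlapped over most of their range, and its 95% interval ran from 95.6% to 106% of WT. Vim at 97.4% (93.4% to 102%) and Fabp7 at 96.5% (92.5% to 101%) of WT had intervals as narrow. The widest was that of Hopx (74.9% to 116%), which has the fewest reads. No member had groups that did not overlap, against 4.77% of all genes.

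Among the other lists at E14.5, Gli3 was the only 1 of 18 radial glia genes that passed. It measured 80.1, 84.2, 93.4 and 84.4 CPM in WT and 75.5, 70.4, 75.3 and 74.6 CPM in KO, with every KO library below every WT library (log2 fold change -0.20, SE 0.0476, adjusted p = 0.0257). The estimates of 16 of the 18 were lower, with a median of -0.09. All 10 cell cycle genes and 8 of 10 intermediate progenitor genes had lower estimates with none past the threshold, and the smallest adjusted p in these lists were 0.0839 (Top2a) and 0.0795 (Dll3). Olig1, a regulator of the oligodendrocyte lineage, fell by 0.45 (SE 0.101, adjusted p = 0.0155), from 14.6 ± 1.74 to 10.6 ± 0.376 CPM (SD, n = 4). The summed levels of the meningeal list (632.7 to 916.8 CPM in KO, 636.7 to 740.0 CPM in WT) and of the blood list (984.5 to 1315.4 and 1033.1 to 1344.8 CPM) overlapped. All 6 meningeal genes (median 0.11) and all 6 endothelial and mural genes (0.09) had higher KO estimates, and 5 of 6 blood genes lower ones (-0.06), with none past the threshold. Their part in the differences of the members was not tested.

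At E16.5, 9 members had a lower and 1 a higher KO estimate, with a median of -0.11 against 0.0 over all genes. Slc1a3 had the smallest p. It measured 185.7, 187.3, 172.9 and 185.4 CPM in WT and 181.5, 149.7, 169.2 and 165.3 CPM in KO. KO replicate 1 lay above WT replicate 3, so the groups overlapped. The log2 fold change was -0.15 (95% interval -0.28 to -0.02, unadjusted p = 0.0237, adjusted p = 0.374). Without WT replicate 3, the lowest of its group, it was -0.18 (adjusted p = 0.39), and without WT replicate 1 it was -0.14 (adjusted p = 0.301). Prom1 had the largest difference, -0.26 (95% interval -0.66 to 0.13), with WT libraries from 21.4 to 37.8 CPM and KO libraries from 23.2 to 33.0 CPM. WT replicate 1, the library with 3.75% ribosomal RNA, gave the 21.4 CPM and was the lowest WT library for 6 of the 10 members. Without it Prom1 was at -0.40 (adjusted p = 0.138), and without WT replicate 4 at -0.16 (adjusted p = 0.848). Without WT replicate 1 Nes was at -0.22, Fabp7 at -0.10 and Notch1 at -0.06. WT replicates 3 and 4 lay above replicates 1 and 2 for Sox2, Pax6, Emx2, Nes, Vim and Notch1. This was not so for Hopx, Fabp7, Slc1a3 and Prom1. Vim, for one, measured 271.1, 296.8, 359.8 and 376.8 CPM in WT replicates 1 to 4. Without WT replicate 4 Sox2 was at 0.03 and Emx2 at 0.01, and without WT replicate 3 Emx2 was at 0.08. The other members kept their sign without either. No member had groups that did not overlap, against 6.39% of all genes. Of the 10 cell cycle genes, 9 had lower estimates (median -0.30) and none passed, while the 18 other radial glia genes were evenly divided, 9 higher and 9 lower. The summed cell cycle level of 500.6 to 615.9 CPM in KO overlapped the 584.3 to 790.6 CPM in WT. All 4 blood genes that could be tested had lower KO estimates (median -0.72), with a summed level over 6 genes of 401.0 to 602.3 CPM in KO and 536.8 to 1073.7 CPM in WT. The part of blood and of dividing cells in the differences of the members was not tested.

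At PND0, 8 members had a higher and 2 a lower KO estimate, with a median log2 fold change of 0.14 against -0.001 over all genes. Hopx and Emx2 had groups that did not overlap, 2 of 10 members against 11.9% of all genes. Hopx measured 6.73, 5.39, 5.92 and 4.73 CPM in WT and 8.79, 8.36, 10.1 and 6.91 CPM in KO. The KO estimate was 0.58 above WT on the log2 scale (SE 0.188, 95% interval 113% to 197% of WT, adjusted p = 0.119). DESeq2 gave an adjusted p of 0.0539, the fit of all 32 libraries 0.0229, and a fit with the log2 CPM of the ribosomal RNA gene as covariate 0.813. Offsets for transcript length gave 0.308, with a log2 fold change of 0.44. Emx2 measured 14.2, 17.3, 14.6 and 15.5 CPM in WT and from 17.9 to 28.1 CPM in the KO libraries, with replicate 3 highest, a log2 fold change of 0.45 (SE 0.155, 95% interval 109% to 172% of WT, adjusted p = 0.138). Without KO replicate 3 the value of Emx2 was 0.28 (adjusted p = 0.306) and that of Hopx 0.49 (adjusted p = 0.23). Nes measured 93.0, 94.4, 102.5 and 99.4 CPM in WT and 94.1, 111.4, 127.1 and 127.4 CPM in KO, where replicate 1 lay within the WT range (log2 fold change 0.23, adjusted p = 0.206). Sox2 measured 71.7 to 101.4 CPM in WT and 91.9 to 128.4 CPM in KO, with a log2 fold change of 0.27 (adjusted p = 0.317, and 0.0655 with no filter on low counts). The differences of Sox2 at E12.5, E14.5 and E16.5 were 0.199, -0.065 and -0.045 (adjusted p = 0.875, 0.638 and 0.877).

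KO replicate 3 was the highest KO library for 9 of the 10 members at PND0. It had 318.1 CPM of Vim against 230.0 to 233.1 CPM in the other KO libraries and 223.1 to 259.6 CPM in WT. It had 628.7 CPM of Fabp7 against 439.1 to 471.0 CPM, and 332.8 CPM of Slc1a3 against 247.4 to 251.3 CPM. Without it, Vim, Prom1 and Notch1 went from 0.10, 0.07 and 0.007 to -0.03, -0.06 and -0.12 on the log2 scale, Fabp7 went from 0.17 to 0.04, and Slc1a3 from -0.09 to -0.21. The summed level of 6 blood genes in this library was 2067.4 CPM against 210.3 to 573.9 CPM in the other KO and 179.0 to 237.4 CPM in the WT libraries. Its summed level of 6 ependymal and choroid plexus genes was 979.9 CPM against 612.1 to 751.9 and 317.2 to 605.0 CPM. That of the 18 other radial glia genes was 2328.6 CPM against 1861.7 to 1890.8 CPM in the other KO libraries.

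Pax6 was the member with the lowest KO estimate at PND0, with a log2 fold change of -0.27 (95% interval -0.72 to 0.18, adjusted p = 0.531). It measured 28.1, 24.5, 28.8 and 48.1 CPM in WT and 27.0, 26.8, 32.7 and 21.6 CPM in KO, so 1 WT library stood above all others. Without that library, WT replicate 4, the difference was -0.006. The same library had the lowest Dhcr7 level of its group (60.0 CPM), and its summed level of 5 genes of the cerebellar granule cell lineage, in which Pax6 is active, was 411.9 CPM against 288.6 to 320.5 CPM in the other WT libraries.

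**Figure D4:**
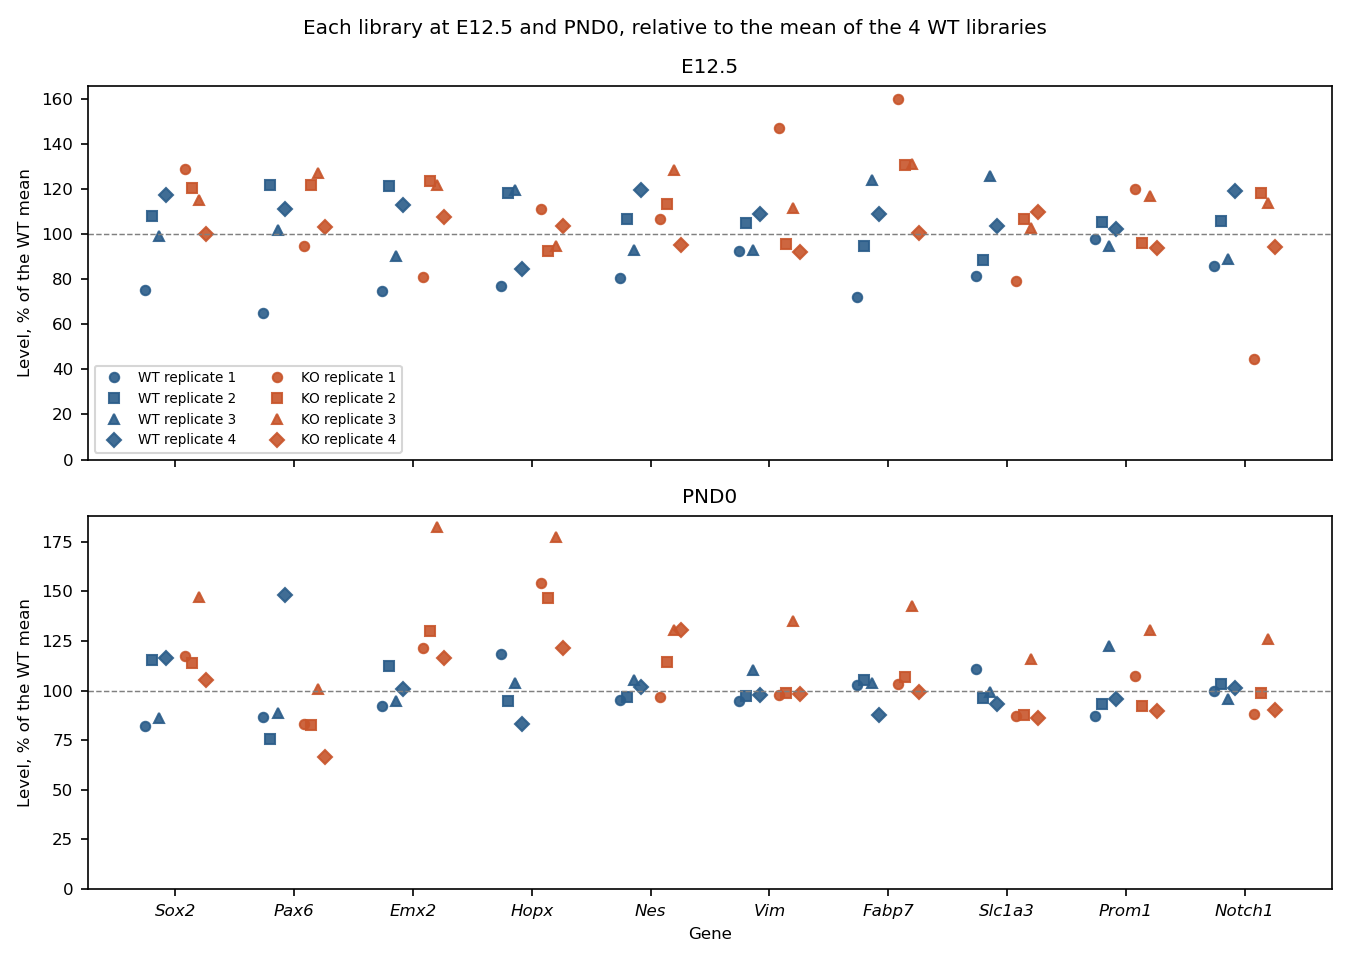
Level of each gene in each library at E12.5 (top) and PND0 (bottom) as a percentage of the mean of the 4 WT libraries, with replicates by marker shape. At PND0, KO replicate 3 (orange triangles) was the highest KO library for 9 of 10 genes, and at E12.5 WT replicate 1 (blue circles) was the lowest WT library for 9 of 10.

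Of the 18 other radial glia genes 8 had higher and 10 lower estimates, and none passed. The smallest adjusted p was that of Emx1, a homeodomain regulator (log2 fold change 0.60, adjusted p = 0.0551). Emx1 measured 11.5, 12.2, 10.5 and 14.2 CPM in WT and 15.6, 20.4, 19.2 and 18.6 CPM in KO, with no overlap. Of the 6 hindbrain and spinal cord genes only Slc6a5, the glycine transporter of hindbrain and spinal neurons, had enough reads for the test, and it fell by 3.14 (adjusted p = 0.012). The summed level of these 6 was 0.238 to 0.515 CPM in KO and 1.24 to 5.67 CPM in WT. The 10 cell cycle genes had 8 higher and 2 lower estimates, none past the threshold, with Pcna at 0.29 (adjusted p = 0.0863). All 4 blood genes tested (median 1.59) and 5 of 6 ependymal and choroid plexus genes (0.34) had higher KO estimates, none past the threshold. The part of blood, ependyma, cerebellum or hindbrain in the differences of the members was not tested. The ribosomal RNA share was 1.16% to 2.09% of counts in KO and 1.8% to 2.78% in WT. These ranges overlap only in part, so the share and the genotype cannot be fully told apart at this stage. With the log2 CPM of the ribosomal RNA gene as covariate the differences were 0.43 for Hopx, 0.27 for Emx2, 0.23 for Nes, -0.02 for Pax6, -0.06 for Vim and -0.03 for Fabp7. With this covariate the calls over all genes went from 250 to 2. Across all genes the KO difference at PND0 had a Spearman correlation of -0.338 with transcript length, over 17107 genes that are not independent. With offsets for transcript length Hopx was at 0.44, Emx2 at 0.42, Nes at 0.36 and Fabp7 at 0.01. Pax6 was at -0.22 and Vim at 0.07, and none of these passed. The calls over all genes were 47 with these offsets.

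A single fit of all 32 libraries tested whether the KO effect on a gene differed between stages. None of the 10 members passed, against 0.0256% of 19541 genes (5). DESeq2 called none of them either, against 346 of 15556 genes. At an unadjusted p under 0.05 there were 2 members, Hopx and Fabp7, against 13.5% of all genes. Their adjusted p were 0.267 for Hopx and 0.308 for Fabp7. For Hopx the estimates were -0.006, -0.10, -0.06 and 0.58 in stage order, and for Fabp7 0.37, -0.05, -0.16 and 0.17.

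The KO means can be set beside the WT course, with no test of the steps in KO. The stage of the highest mean was the same in both genotypes for 9 of the 10 members, the exception being Sox2, highest at E14.5 in WT (205.2 ± 11.9 CPM, against 200.6 ± 36.4 at E12.5) and at E12.5 in KO (233.2 ± 24.4 CPM; SD, n = 4 each). The stage of the lowest mean was the same for 9, the exception being Fabp7, lowest at E12.5 in WT and at E14.5 in KO. From E12.5 to PND0 the mean of Nes was 6.88-fold lower in WT and 6.47-fold lower in KO, that of Vim 3.94-fold and 4.09-fold, and that of Prom1 3.88-fold and 3.94-fold. The mean of Slc1a3 was 3.37-fold higher in WT and 3.19-fold higher in KO. Hopx at PND0 stood at 1.17 times its E12.5 mean in WT and at 1.75 times in KO.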

How the data were processed

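Poly(A) RNA of whole brain was sequenced as 150 bp read pairs, per the labels' protocols. The authors deposited raw counts per gene symbol, 1 table per stage. The submitters' processing notes name HISAT2, SAMtools, featureCounts, DESeq2 and mm10. Which tool made the tables, its versions and settings are not given in the sources used here.

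Counts were tested with edgeR 4.0.16 in R 4.3.3 (TMM scaling, filterByExpr with minimum count 10 and minimum total 15, robust quasi-likelihood F test), separately for each comparison. Benjamini-Hochberg adjustment ran over all genes tested, with a threshold of 0.05. Standard errors are the log2 fold change divided by the square root of F. Levels are CPM with TMM over all 32 libraries. Lengths are those of the longest GENCODE M21 transcript. Total counts of 13.87 to 28.32 M set the counting error, and no 2 libraries of a group were copies (chi-square per degree of freedom 2.9 to 115 over 48 pairs). The test was checked on simulated data, where at each stage it called some but not all of the changes put in.

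The members and lists were chosen with earlier results of these data known. All members are named. Of other lists, genes past the threshold in a genotype comparison are named, or that with the smallest p. Gli3, Sox3, Tnc and Ptprz1 are named for the WT course, chosen after their values were seen. The 2 genes nearest in pattern to a member were found on edgeR's log2 CPM (prior count 2). Alternatives were RLE factors, no filter, DESeq2 1.42.0, each library left out, all 32 libraries in 1 fit, a replicate block, covariates for ribosomal RNA and sex genes, and length and GC offsets (lowess span 0.3).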

Additional observations from a re-analysis of the deposited data

Results flagged for a closer look

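Within a group of 4 libraries, a value was marked where its gap to the nearest other library took up more of the group's range than Dixon's 95% critical value allows, and 5 of 80 groups were marked, where chance marks about 1 in 20. At PND0, KO replicate 3 was far above the other KO libraries for Vim (318.1 CPM against 230.0 to 233.1), Fabp7 (628.7 CPM against 439.1 to 471.0) and Slc1a3 (332.8 CPM against 247.4 to 251.3). At the same stage WT replicate 4 was far below the other WT libraries for Fabp7 (387.0 CPM against 453.4 to 465.5). At E16.5 WT replicate 3 was below the others for Slc1a3 (172.9 CPM against 185.4 to 187.3).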

How the results depend on the processing

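Of 676 values of the members in KO against WT over the alternatives, 51 changed sign, and none of those passed the test. Of 560 values of WT steps, 8 changed sign. The number of members past the threshold stayed at 0 at each embryonic stage, and at PND0 it was 1 in the fit of all 32 libraries. With libraries left out in turn, it was 6 to 7 at the first WT step and 9 to 10 at the last. With length offsets it was 7 at the last WT step and 10 from E12.5 to PND0, and with no filter 5 and 10 at the first and last steps. Signs changed for Hopx (0.019) and Slc1a3 (0.000952) at E12.5 in the fit of all 32 libraries, and for Slc1a3 at E14.5 with no filter (-0.000113). With GC offsets they changed for Hopx at E12.5 (0.00455), Notch1 at E16.5 (-0.024) and PND0 (-0.09), and Sox2 from E12.5 to E14.5 (-0.015). With length offsets they changed for Slc1a3 at E14.5 (-0.0015), Notch1 at E16.5 (-0.013), Hopx from E12.5 to E14.5 (0.117) and Fabp7 from E16.5 to PND0 (0.093). With the ribosomal RNA covariate they changed for Slc1a3 (0.035) and Notch1 (0.021) at E12.5, Prom1 at E14.5 (-0.011), Hopx (0.027) and Notch1 (-0.081) at E16.5, and Vim (-0.058), Fabp7 (-0.031), Prom1 (-0.162) and Notch1 (-0.083) at PND0. With the sex-gene covariate they changed for Hopx at E12.5 (0.066) and Emx2 at E16.5 (0.011). The cause was not tested.

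With 1 library left out, values at E12.5 ran from -0.012 to 0.262 for Pax6, -0.012 to 0.215 for Emx2, -0.104 to 0.092 for Hopx, -0.037 to 0.218 for Vim, -0.1 to 0.103 for Slc1a3, -0.000488 to 0.133 for Prom1 and -0.258 to 0.087 for Notch1. At E14.5 they ran from -0.0061 to 0.014 for Slc1a3, -0.023 to 0.046 for Prom1 and -0.064 to 0.019 for Notch1. At E16.5 they ran from -0.108 to 0.034 for Sox2, -0.092 to 0.081 for Emx2, -0.154 to 0.018 for Hopx and -0.061 to 0.155 for Notch1. At PND0 they ran from -0.032 to 0.148 for Vim, -0.055 to 0.179 for Prom1 and -0.123 to 0.07 for Notch1. At the first WT step (E12.5 to E14.5) they ran from -0.096 to 0.081 for Sox2, -0.168 to 0.027 for Hopx and -0.044 to 0.2 for Fabp7.

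Replicate numbers were shared between genotypes. Across genes, the deviations of same-numbered libraries from their group means in log2 CPM correlated at -0.276 to 0.303. The WT libraries that matched best with their own number were 2, 1, 0 and 1 of 4 in stage order. The numbers were not taken to pair the libraries. With a replicate block 0 members passed at any stage, and signs changed for Hopx at E12.5 (0.011) and Notch1 at PND0 (-0.0087). Over all genes the block gave 6, 131, 5 and 356 calls in stage order, where the fit without it gave 3, 94, 8 and 250. DESeq2 gave 30, 122, 150 and 921. Over all alternatives the E12.5 count ran from 1 to 52, that of E14.5 from 4 to 155, that of E16.5 from 3 to 233, and that of PND0 from 2 (ribosomal RNA covariate) to 1205 (fit of all 32 libraries). For the change with stage, the count was 5 without the block and ran from 0 to 797 over all alternatives. The 797 came without KO replicate 1 of E12.5. Stage and sequencing batch cannot be told apart, and in whole brain fewer cells of a type and less RNA per cell cannot be told apart.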

Other observations

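Marker genes of other tissues and regions also differed between libraries of a group, among them libraries named above for the members. Their part in the differences of the members was not tested. At E12.5 the summed level of 6 blood genes was 7870.6 CPM in WT replicate 3 and 1758.3 to 4192.3 CPM in the other WT libraries, and in KO it was 4429.6 CPM in replicate 1 and 1439.3 to 1713.5 CPM in the others. At PND0 the summed level of 6 ventral forebrain progenitor genes was 166.0 CPM in WT replicate 3 and 163.7 CPM in KO replicate 3, against 257.0 to 300.6 CPM in the other WT and 268.3 to 296.2 CPM in the other KO libraries. The 6 microglia genes summed to 45.7 CPM in KO replicate 3 and 49.4 CPM in WT replicate 4, against 60.2 to 68.7 CPM in the other libraries of that stage.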
